A study of Mus musculus with 9 samples.

Results

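Activity-induced synaptic effector genes are the working end of the response of a neuron to its own firing: calcium entry switches on their transcription, and the proteins then act at synapses. The 7 genes described here are Npas4, Arc, Homer1, Nptx2, Ptgs2, Plk2 and Rgs2, chosen by name as activity-induced genes that act at synapses, together with Npas4, a transcription factor that induces part of such a programme. Each had 1 row among 35125 genes of the deposited table, and 7 of 7 were among the 14013 genes kept after a filter on low values. In cortex many activity-induced transcripts appear and decay quickly after activity.

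RNA came from the medial prefrontal cortex (mPFC) of mice in 9 libraries, 3 per group. The control group is labelled No-stress, the CUS model group was exposed to chronic unpredicted stress (CUS), and the running model group is labelled exercise. The series describes running as applied to mice exposed to that stress. All 3 groups carry the terms 4week and week8. The labels do not say what each period refers to, nor the strain, sex or age of the mice, nor whether a library is 1 animal or a pool. Replicate numbers only name libraries. A p-value here weighs a difference between groups against the spread of libraries within groups, and part of that spread may be technical.

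Values are FPKM, fragments scaled by transcript length and by the mapped fragments of the library, which divides by gene length and so allows levels of different genes to be compared. FPKM summed to 423257 in CUS replicate 3 and to between 370441 and 393663 in the other 8 libraries, so that library stands apart. Markers fixed for excitatory neurons, such as Slc17a7 and Camk2a, summed to between 1690 and 1858 FPKM. Choroid plexus markers summed to 215 FPKM in control replicate 3 and to at most 41.0 in the other 8 libraries. Myelin markers of mature oligodendrocytes summed to 1139 in the same library and to at most 680 elsewhere. The tissue is a mixture of cells, so fewer cells of a type and less RNA per cell cannot be told apart.

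Calcium-responsive promoters often carry the cyclic AMP response element (CRE), which has the core TGACG. RefSeq promoter windows of build GRCm38.p6 matched 5 of the 7 genes, and Arc and Nptx2 had no entry. The 250 bases before the start of 4 of these 5 genes held the core on either strand. Counted by window this was 4 of 6, against 17.8% of all 32851 windows of that length. The 4 windows are shown because genes that share this core had different values across the groups. Capitals mark the core as TGACG or, on the other strand, CGTCA.
Npas4, chr19:4989972-4990221, minus strand: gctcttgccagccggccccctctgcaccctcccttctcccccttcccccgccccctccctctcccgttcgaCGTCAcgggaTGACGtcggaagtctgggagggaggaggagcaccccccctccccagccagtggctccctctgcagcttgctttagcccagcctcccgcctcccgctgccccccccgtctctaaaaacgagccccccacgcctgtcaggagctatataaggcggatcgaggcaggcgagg
Homer1, chr13:93303507-93303756, plus strand: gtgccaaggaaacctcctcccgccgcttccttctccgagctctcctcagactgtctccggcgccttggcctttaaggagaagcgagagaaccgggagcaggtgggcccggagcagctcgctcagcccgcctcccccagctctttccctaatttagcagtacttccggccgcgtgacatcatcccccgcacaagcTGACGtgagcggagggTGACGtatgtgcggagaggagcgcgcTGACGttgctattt
Plk2, chr13:110394794-110395043, plus strand: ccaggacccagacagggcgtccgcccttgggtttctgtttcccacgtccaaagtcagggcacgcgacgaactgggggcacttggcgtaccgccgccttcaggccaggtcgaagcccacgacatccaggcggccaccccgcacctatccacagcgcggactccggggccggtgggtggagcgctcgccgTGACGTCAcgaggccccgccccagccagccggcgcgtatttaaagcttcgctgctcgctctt
Rgs2, chr1:144004150-144004399, minus strand: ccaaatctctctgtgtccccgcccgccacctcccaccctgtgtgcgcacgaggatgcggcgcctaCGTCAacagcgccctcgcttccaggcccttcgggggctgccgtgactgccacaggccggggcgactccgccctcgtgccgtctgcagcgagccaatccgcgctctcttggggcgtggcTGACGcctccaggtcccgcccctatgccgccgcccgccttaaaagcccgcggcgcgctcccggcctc

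Npas4 held 2 cores on opposite strands between 179 and 165 bases before its start, and Homer1 held 3 between 56 and 10 bases before. Plk2 held the full palindrome TGACGTCA between 62 and 55 bases before its start, a sequence present in 1.55% of all windows. Rgs2 held 2 cores, the nearer one between 67 and 63 bases before its start. The window of Ptgs2 and a second window of Homer1 held no core. None of the 6 windows held a TGANTCA motif (6.75% of all windows), a CArG box (1.47%) or TATAAA (12.4%). All motifs were searched on both strands, and the core lies within the full palindrome. A match describes letters only and is no evidence of binding.

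Npas4 (chromosome 19, 4984353 to 5003439) encodes a neuronal transcription factor of the bHLH-PAS family that responds to calcium entry and shapes inhibitory synapses. Its level was 28.7, 21.2 and 21.7 FPKM in the controls, 19.5, 11.4 and 5.71 in the CUS libraries, and 15.8, 11.6 and 14.1 in the running libraries. Each control library lay above each CUS and each running library, and the running values lay inside the CUS range. The log2 difference from control was -1.08 in CUS (SE 0.323, limma adjusted p = 0.260) and -0.76 in running (limma adjusted p = 0.404). Between running and CUS it was 0.32, with a 95% confidence interval from -0.39 to 1.04. CUS replicate 3 held the lowest value, and without it the difference of CUS from control was -0.65 and that of running from CUS was -0.12.

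Arc (chromosome 15, 74669081 to 74672570) encodes a protein that recruits endocytic machinery and draws AMPA receptors from the synapse. Its level was 115, 49.3 and 122 FPKM in the controls, 42.3, 57.0 and 30.3 in CUS, and 123, 137 and 139 in running. The running libraries lay above the other 6, and control replicate 2 lay inside the CUS range while the other 2 controls lay far above it. The means were 95.3 ± 40.0, 43.2 ± 13.4 and 133 ± 8.87 FPKM (SD, n = 3 each). Running exceeded CUS by 3.07-fold in the means and by 1.65 on the log2 scale (SE 0.307, limma adjusted p = 0.0776, between 0.0133 and 0.286 over the alternatives). Only 4 of the 14013 genes had a larger log2 difference in that comparison, in either direction. CUS lay below control, at -1.07 on the log2 scale (SE 0.307, limma adjusted p = 0.255).

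The comparison of Arc between running and control rested largely on control replicate 2. The log2 difference was 0.58 with all libraries (limma adjusted p = 0.493) and 0.16 without that library. The difference of running from CUS does not use its value, yet the shared estimate of spread does. Without that library Arc was called (limma adjusted p = 0.0150), along with 0.150% of all kept genes. Arc was also called without CUS replicate 2 (limma adjusted p = 0.0224), where 11.0% of all kept genes were called.

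Homer1 (chromosome 13, 93303757 to 93405129) encodes postsynaptic scaffolds that tie metabotropic glutamate receptors to calcium stores, and its short, activity-induced form uncouples them. RefSeq lists 5 curated transcripts, and the gene-level values do not separate the short form from the long ones. Its level was 34.2, 32.5 and 29.1 FPKM in the controls, 24.3, 31.4 and 39.8 in CUS, and 39.7, 42.6 and 47.5 in running. All running values lay above all controls, and CUS replicate 3 just exceeded the lowest running value. Running was higher than control by 0.43 on the log2 scale (SE 0.145, limma adjusted p = 0.303) and higher than CUS by 0.46 (limma adjusted p = 0.109, between 0.0117 and 0.319 over the alternatives). The latter difference was 0.28 without CUS replicate 1 and 0.73 with library quality weights. CUS and control had nearly the same mean, 31.8 ± 7.73 and 32.0 ± 2.60 FPKM, with a difference of -0.03 (95% confidence interval -0.35 to 0.29). That difference was 0.14 without CUS replicate 1 and 0.02 without control replicate 1. With library quality weights CUS lay lower, at -0.29 (limma adjusted p = 0.178).

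Nptx2 (chromosome 5, 144545887 to 144557478) encodes a secreted pentraxin that clusters AMPA receptors, in particular on parvalbumin interneurons. Its level was 47.6, 37.5 and 38.0 FPKM in the controls, 26.4, 32.4 and 37.2 in CUS, and 34.8, 33.7 and 36.7 in running. All controls lay above all libraries of both other groups, although control replicate 2 and CUS replicate 3 were close. The log2 difference from control was -0.36 in CUS (SE 0.121, limma adjusted p = 0.267) and -0.22 in running (limma adjusted p = 0.521). The first was -0.23 without CUS replicate 1 and -0.55 with library quality weights, and the second was -0.11 without control replicate 1. Running differed from CUS by 0.14, with a 95% confidence interval from -0.13 to 0.41, by 0.01 without CUS replicate 1 and by 0.26 without CUS replicate 3.

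Ptgs2 (chromosome 1, 150100031 to 150108234) encodes the inducible cyclooxygenase, which starts prostaglandin synthesis and in cortex is made largely by excitatory neurons. Its level was 6.53, 5.48 and 6.19 FPKM in the controls, 4.02, 4.79 and 4.55 in CUS, and 6.26, 6.02 and 6.73 in running. Every CUS library lay below every control and every running library, while running and control overlapped. The mean differed by -26.6% in CUS from control and was 42.3% higher in running than in CUS. The log2 differences were -0.41 (SE 0.0891, limma adjusted p = 0.234) and 0.47 (limma adjusted p = 0.0776, between 0.0117 and 0.286 over the alternatives). Without CUS replicate 2 the latter was called (limma adjusted p = 0.0269), along with 11.0% of all kept genes. Running differed from control by 0.06, with a 95% confidence interval from -0.14 to 0.26.

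Plk2 (chromosome 13, 110395044 to 110400844) encodes a Polo-like kinase that weakens synapses after strong activity by marking spine proteins for breakdown. Its level was 63.4, 61.8 and 61.3 FPKM in the controls, 62.6, 67.8 and 65.7 in CUS, and 70.6, 68.2 and 68.7 in running. All running libraries lay above the other 6, with a narrow spread within each group. Running was 11.3% higher than control (log2 0.15, SE 0.0511, limma adjusted p = 0.298) and 5.79% higher than CUS (log2 0.08, limma adjusted p = 0.359). The difference from CUS was 0.18 after rescaling each library to the same sum of FPKM and 0.05 without CUS replicate 1. In running against control 25.7% of all kept genes had a larger log2 difference in size.

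Rgs2 (chromosome 1, 143999338 to 144004149) encodes a regulator that speeds the shut-off of Gq signalling at metabotropic receptors. Its level was 16.7, 16.1 and 16.4 FPKM in the controls, 17.3, 16.7 and 20.3 in CUS, and 16.1, 15.4 and 16.1 in running. Of the 7 genes it was the only one whose mean was lower in running than in CUS. The log2 value was -0.18 (SE 0.0733, limma adjusted p = 0.182). CUS replicate 3 held the highest value, and without it that difference was -0.09. After adjusting each library for gene length and GC content, an alternative added once the values were known, it was -0.09, and after rescaling to the same sum of FPKM it was -0.08. Running and control overlapped, with a difference of -0.04 (95% confidence interval -0.21 to 0.12).

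**Figure D1:**
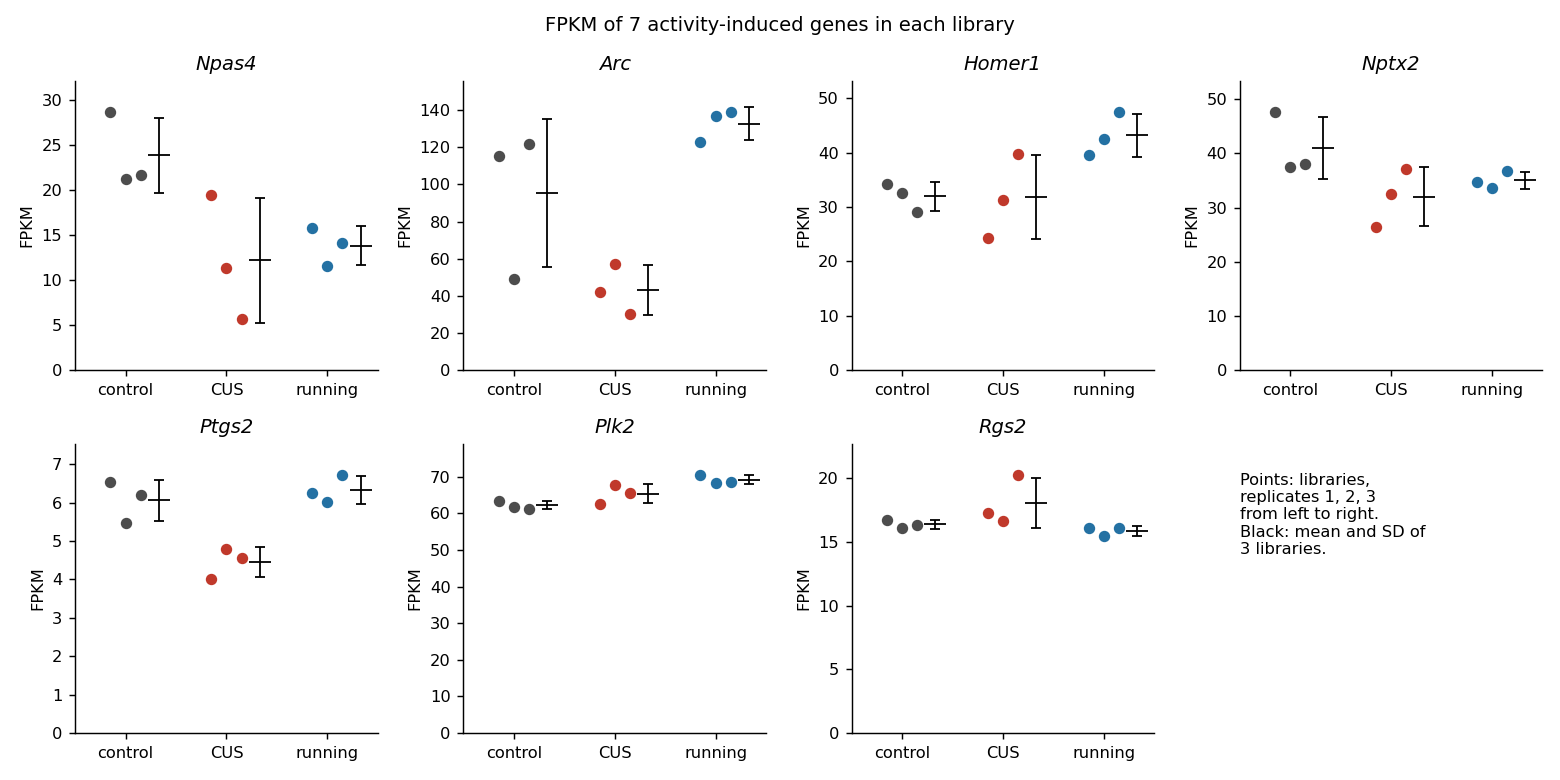
Each panel plots 1 gene in FPKM, with 1 point per library and the mean and SD of 3 libraries in black. Arc and Ptgs2 are low in the CUS libraries and high in running, Npas4 and Nptx2 are highest in the controls, and Plk2 and Rgs2 vary little.

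The first comparison asks how the stress model differs from unstressed cortex. Of the 7 genes, 5 were lower and 2 higher in CUS, with a median log2 difference of -0.36 against 0.02 over all kept genes. Without CUS replicate 1 the median was -0.23. None passed the adjusted threshold of 0.05 in limma (0.00714% of all kept genes did). At an unadjusted p under 0.05 there were 4, Arc, Npas4, Nptx2 and Ptgs2, all lower. At that level 5.79% of all kept genes were lower and 8.90% were higher. Npas4, Nptx2 and Ptgs2 had no overlap between groups, where 7.60% of all kept genes were lower without overlap. Without control replicate 1 or without CUS replicate 2 the count without overlap, in either direction, was 5. The share of all kept genes in either direction was 19.7% with all libraries, 26.1% without control replicate 1 and 38.8% without CUS replicate 2.

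The next comparison asks what accompanies running in stressed mice. Running exceeded CUS for 6 of the 7 genes and lay below it for 1. The median log2 difference was 0.32, against -0.03 over all kept genes. In limma 0 of the 7 passed the adjusted threshold (0.00714% of all kept genes did). At an unadjusted p under 0.05, Arc, Homer1 and Ptgs2 were higher (7.74% of all kept genes) and Rgs2 was lower (15.7%). Without overlap between groups, Arc, Ptgs2 and Plk2 were higher (8.99% of all kept genes) and Rgs2 was lower (15.9%), which makes 4 of 7 in either direction (24.9%). Without CUS replicate 3 there were 6, and the share of all kept genes was then 34.2%. The number called depended on how single libraries were treated. With library quality weights, which gave CUS replicate 3 a weight of 0.244 and CUS replicate 1 one of 2.61, Arc, Homer1 and Ptgs2 were called, along with 15.5% of all kept genes. Without CUS replicate 2, Arc and Ptgs2 were called, along with 11.0% of all kept genes. Without control replicate 2, Arc was called, along with 0.150% of all kept genes, and without CUS replicate 3 the count was 0. A fit of only these 2 groups called Arc and 0.107% of all kept genes.

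The last comparison sets running against unstressed controls. Here 4 of the 7 genes were higher and 3 lower, with a median log2 difference of 0.06 against -0.02 over all kept genes. The median was -0.0058 without control replicate 2 and 0.11 without control replicate 1. In limma 0 passed the adjusted threshold (0.0214% of all kept genes did). At an unadjusted p under 0.05, Homer1 and Plk2 were higher (5.15% of all kept genes) and Npas4 was lower (6.47%). Without overlap, Arc, Homer1 and Plk2 were higher (10.5% of all kept genes) and Npas4 and Nptx2 were lower (11.9%), which makes 5 of 7 in either direction (22.4%). The 3 comparisons share libraries, so a low CUS library enters the first and the second with opposite sign. A limma F test of any difference among the 3 groups called 0 of the 7 (0.0214% of all kept genes), with adjusted p between 0.121 for Arc and Ptgs2 and 0.288 for Rgs2. At an unadjusted p under 0.05 that test held 6 of the 7, all but Rgs2, and 21.1% of all kept genes. Without control replicate 2 the F test called Arc (limma adjusted p = 0.0254, 0.107% of all kept genes), and with library quality weights it called Arc, Homer1, Nptx2 and Ptgs2 (9.80%).

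**Figure D2:**
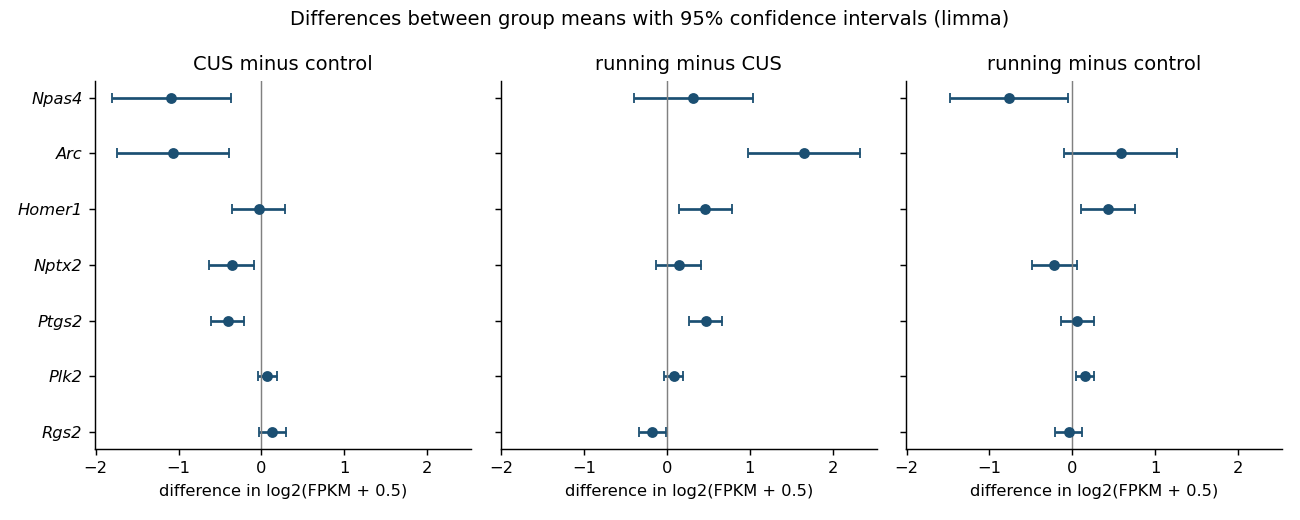
Points are differences between group means in log2(FPKM + 0.5), and bars are 95% confidence intervals from limma, with 3 libraries per group. The intervals of Arc and Npas4 are the widest, and those of Plk2 and Rgs2 are the narrowest.

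Markers of other cell types differed between groups beside these results. The summed excitatory neuron markers lay between 1690 and 1756 FPKM in CUS and between 1768 and 1858 in running, with 2 of 6 markers higher in running. The inhibitory neuron markers summed to between 768 and 867 in CUS and between 666 and 723 in running, with 4 of 6 higher. Blood cell markers summed to between 693 and 867 in running and between 335 and 599 in control, with 3 of 3 higher. Oligodendrocyte precursor markers were lower than in control in both other groups, with 0 of 3 higher, at sums between 52.7 and 61.5 in control, 45.6 and 52.1 in CUS, and 45.4 and 47.7 in running. Mature oligodendrocyte markers summed to at least 609 in control and at most 608 in running, with 0 of 6 higher. The other 6 of 11 marker lists overlapped in all 3 comparisons, and no marker was at 0 in all libraries. The part of these cell types in the results above was not tested.

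The order of the levels among the 7 genes differed between the groups. In control Arc (95.3 FPKM) and Plk2 (62.1) led, with overlapping libraries, followed without overlap by Nptx2 (41.0), Homer1 (32.0), Npas4 (23.9), Rgs2 (16.4) and Ptgs2 (6.07). In CUS Plk2 led at 65.4 FPKM, and Arc (43.2), Nptx2 (32.0) and Homer1 (31.8) overlapped their neighbours. Rgs2 (18.1) and Npas4 (12.2) overlapped each other, and Ptgs2 was last at 4.45. In running Arc stood first at 133 FPKM, clear of Plk2 (69.2), and Homer1 (43.3) came ahead of Nptx2 (35.0) without overlap, the reverse of their order in control. Rgs2 (15.9) and Npas4 (13.8) overlapped again.

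Spread within groups also differed by gene. In CUS the coefficient of variation was 56.8% for Npas4, 31.0% for Arc and 24.3% for Homer1, and 3.99% for Plk2. CUS replicate 3 held the lowest Arc and Npas4 of all 9 libraries and the highest Homer1, Nptx2 and Rgs2 of the 3 CUS libraries. CUS replicate 1 showed the opposite for Npas4, Homer1 and Nptx2, with the highest Npas4 and the lowest Homer1 and Nptx2 of its group. In running the coefficient of variation was 6.68% for Arc and 15.6% for Npas4.

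Arc and Npas4, both lower in CUS than in control, parted in the running libraries. The ratio of Arc to Npas4 was 4.01, 2.32 and 5.60 in the controls, 2.17, 5.01 and 5.30 in CUS, and 7.74, 11.8 and 9.83 in running. Every running library lay above the other 6. On the log2 scale the ratio was 1.32 higher in running than in CUS and 1.37 higher than in control, and 0.05 higher in CUS than in control. The exact two-sided permutation p was 0.1 for each of the first 2 differences, which is the smallest that 3 against 3 allows, and 1.0 for the last. This ratio was chosen after the values were seen, and it has the depth and library of both genes in common.

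**Figure D3:**
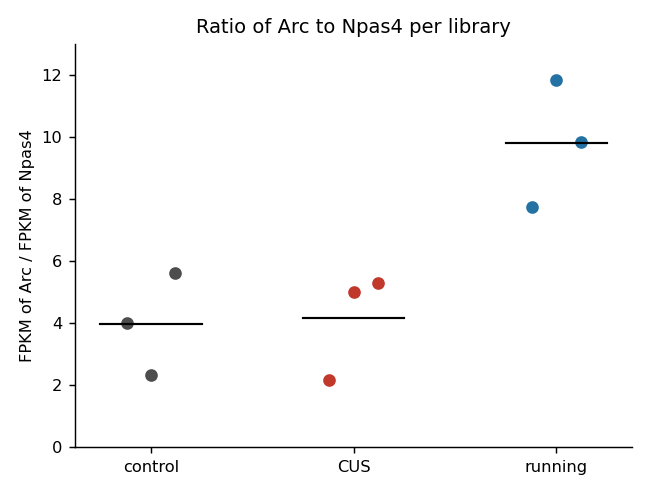
The plot gives the FPKM of Arc divided by the FPKM of Npas4 in each library, with a line at the group mean. The 3 running libraries sit between 7.74 and 11.8, above the 6 control and CUS libraries at 2.17 to 5.60.

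Other activity-induced genes were read from lists chosen by function. These lists, like the 7 genes and the partner lists below, were chosen with earlier results of these data known. Of 19 kept transcription factors and early genes, 18 were lower in CUS than in control (13 at an unadjusted p under 0.05) and 19 were higher in running than in CUS (17 at that level). Of all kept genes, 5.79% were lower in CUS than in control at that level and 7.74% were higher in running than in CUS. Fos was at 23.6, 12.1 and 23.0 FPKM in control, 11.4, 8.75 and 5.86 in CUS, and 21.7, 24.3 and 24.3 in running, with control replicate 2 low among the controls, as for Arc, but above all CUS libraries. Egr2, Egr4 and Nr4a1 were higher in running than in CUS by 1.67, 0.77 and 0.89 on the log2 scale (limma adjusted p = 0.0776 for each). The median of that list was 0.72 in running against CUS, beside 0.32 for the 7 genes.

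Of 24 kept effector genes in a further list, 19 were lower in CUS than in control, 9 at an unadjusted p under 0.05 (5.79% of all kept genes). In running against CUS 20 were higher, 10 at that level (7.74% of all kept genes), with a median of 0.17. Those with the smallest p in running against CUS were the kinase Sik1 (log2 1.06) and the MAP kinase phosphatases Dusp5 (0.84), Dusp1 (0.72) and Dusp6 (0.58), with a limma adjusted p = 0.0776 for each. In limma 0 genes of either list passed the adjusted threshold in any comparison.

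**Figure D4:**
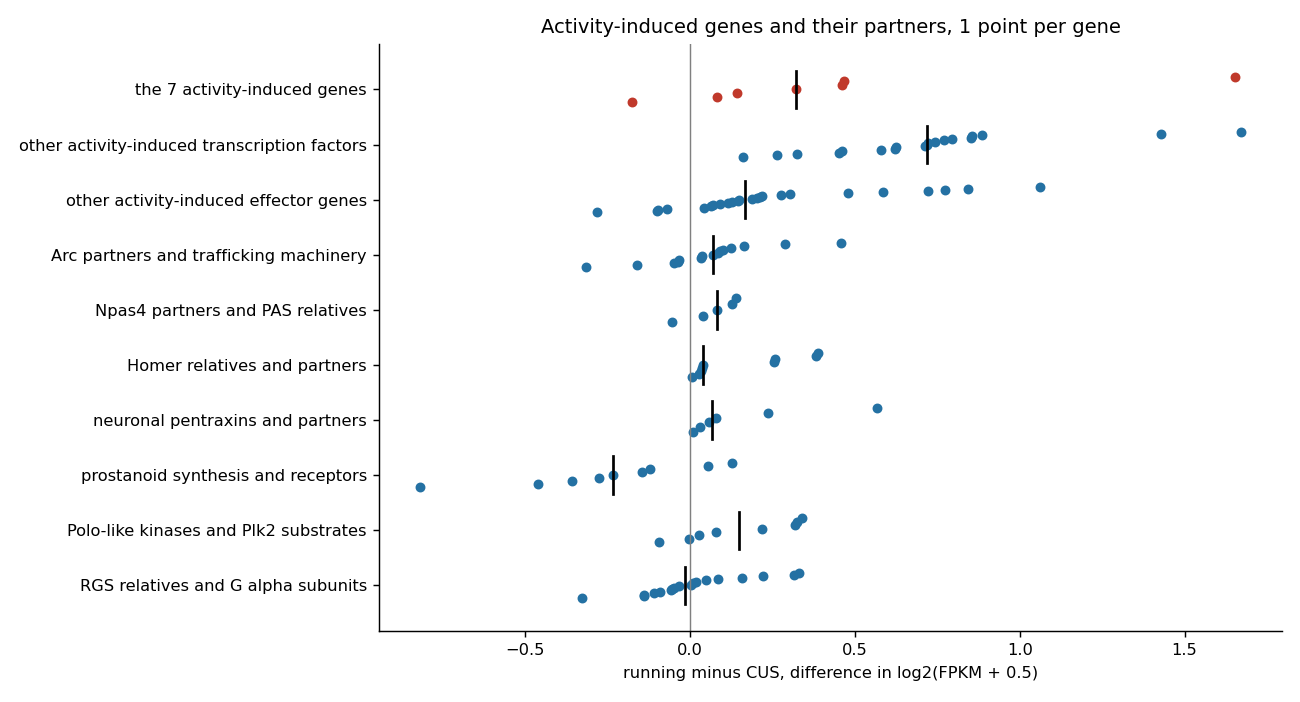
Each point is a kept gene, placed by its running minus CUS difference in log2(FPKM + 0.5), with a black line at the median of each list. Arc, at 1.65, is the highest of the 7 genes and lies beside the top of the transcription factor list. The effector list has a median of 0.17 and the prostanoid list one of -0.23. The medians of the other partner lists lie between -0.02 and 0.15.

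Binding partners and relatives of the 7 genes made up 7 further lists, and in limma 0 of their genes passed the adjusted threshold in any comparison. Npas4 pairs with ARNT proteins, and its main neuronal partner Arnt2 differed by -0.12 between CUS and control and 0.13 between running and CUS on the log2 scale. Of 5 genes of that list, Npas2 alone had an unadjusted p under 0.05 in any comparison, lower in CUS than in control (log2 -0.23). In that comparison 5.79% of all kept genes were lower at that level. Arc binds endophilin and the clathrin adaptor, and Sh3gl3, an endophilin, was lower in running than in CUS (log2 -0.31, limma adjusted p = 0.0776), as was the adaptor subunit Ap2m1 (log2 -0.16). The NMDA receptor subunits Grin2b and Grin2a of the same list were higher in running than in CUS, by 0.46 and 0.29. Dlg4, the abundant scaffold PSD-95, differed by 0.04.

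Of 9 Homer relatives and partners, 9 were lower in CUS than in control and 9 higher in running than in CUS, with small medians of -0.14 and 0.04. The calcium store receptor Itpr1 was higher in running than in CUS by 0.39 on the log2 scale, Shank2 by 0.38, Shank1 by 0.26 and Homer2 by 0.25, with limma adjusted p between 0.0832 and 0.175. Dlgap1 differed by 0.04. Among pentraxins, Nptxr, the membrane-bound receptor of the family, was at 203, 174 and 151 FPKM in control, 133, 166 and 82.0 in CUS, and 188, 178 and 178 in running. CUS replicate 3 was the lowest and control and CUS overlapped, while running lay above every CUS library. Nptx1 was higher in running than in CUS by 0.24, and the AMPA receptor subunits Gria2 and Gria3 differed by 0.08 and 0.06.

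Around Ptgs2, most genes for prostanoid synthesis, breakdown and receptors pointed the other way. Of 9 kept genes 6 were higher in CUS than in control and 3 lower, and in running against CUS 7 were lower and 2 higher. At an unadjusted p under 0.05, 4 were higher in CUS than in control (8.90% of all kept genes). At that level 4 were lower in running than in CUS (15.7% of all kept genes). Pla2g4a, the phospholipase that releases arachidonic acid, was at 0.63, 0.70 and 0.71 FPKM in control, 1.03, 0.93 and 1.04 in CUS, and 0.55, 0.62 and 0.60 in running. Hpgd, which inactivates prostaglandins, was at 3.62, 4.00 and 3.14 FPKM in control, 4.22, 4.93 and 5.32 in CUS, and 3.44, 3.83 and 3.66 in running. For both genes every CUS library lay above the other 6, the mirror of Ptgs2, with limma adjusted p = 0.0776 and 0.0978 in running against CUS. Ptges2 differed by -0.23 and Ptges3 by -0.15. Ptgds, abundant in meninges and choroid plexus, reached 1496 FPKM in CUS replicate 3 and lay between 377 and 861 in the other 8 libraries. Meningeal markers summed to 42.7 FPKM in that library and to at most 31.9 in the others, and their part in Ptgds was not tested.

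Of 8 Polo-like kinases and substrates of Plk2, 6 were higher in running than in CUS, 3 at an unadjusted p under 0.05 (7.74% of all kept genes). Sipa1l1, the spine protein that Plk2 marks for breakdown, was higher by 0.32 on the log2 scale, as was Plk3. Plk5 was higher by 0.34 but was not among those 3 (limma unadjusted p = 0.0863). Rasgrf1 differed by 0.00. Of 18 RGS relatives and G alpha subunits, 9 were higher and 9 lower in running than in CUS. Rgs8, Rgs16 and Rgs6 were higher by 0.33, 0.32 and 0.22, and Rgs11 was lower (log2 -0.33), with limma adjusted p between 0.0877 and 0.145. The abundant subunits Gnao1 and Gnai2 differed by 0.08 and -0.14.

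The genes whose values followed the average of the 7 most closely over the 9 libraries were Jdp2 (Pearson r = 0.94), Hsph1 (0.94), Apold1 (0.93), Vgf (0.93) and Egr3 (0.92). These are descriptions over 9 libraries that share groups and depth, and they carry no test. Taken singly, Arc was followed most closely by Trib1 (0.98), Npas4 by Ism1 (0.97), Homer1 by Acot5 (0.97), Nptx2 by Palmd (0.88), Ptgs2 by Apold1 (0.96), Plk2 by Dpf1 (0.97) and Rgs2 by Hsbp1 (0.99). No gene was the closest match of more than 1 of the 7. Trib1 was at 8.97, 5.34 and 9.71 FPKM in control, 4.79, 6.21 and 4.79 in CUS, and 8.85, 9.42 and 9.89 in running, with control replicate 2 low as for Arc. Hsbp1 had its highest value, 279 FPKM, in CUS replicate 3, the library with the highest Rgs2, and lay between 185 and 218 in the others.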

How the data were processed

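The 9 libraries were made, per the labels' protocols, from Trizol-extracted total RNA by oligo(dT) selection and random-primed cDNA, with no step that marks the strand. No exon of another GENCODE M21 gene overlapped an exon of the 7 genes. The build mm10 and the programs RSEM 1.2.12, Bowtie2 2.2.5 and DESeq2 1.4.5 are named in the submitters' processing notes, without their roles. FPKM to 2 decimals, and no counts, are what the authors deposited for these libraries. Absolute depth is unknown, so no counting interval is given. The commonest value above 0 among olfactory receptor genes was 0.06 FPKM in each library, so relative depths could not be told apart at this rounding.

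Of 65389 rows, 30264 without an NCBI gene identifier were at 0 in all libraries. The filter kept 14013 genes that reached 0.5 FPKM in 3 or more libraries. Differences are on the log2(FPKM + 0.5) scale, which understates low genes. One limma 3.58.1 model (R 4.3.3) of all 9 libraries, with an intensity trend and 6 residual degrees of freedom, gave each comparison, with Benjamini-Hochberg adjustment over all kept genes and a call at 0.05. The code was tested on simulated data. The smallest p of an exact test with 3 libraries a side is 0.1.

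The 7 genes and all lists were chosen with earlier results of these data known. The named genes are the 7; the 5 genes with a mean of at least 1 FPKM, unnamed and Y-linked genes left out, that follow the average standardised profile most closely and the closest of each gene; and, per list, up to 4 with the smallest p in running against CUS and, for partner lists, the 2 most abundant. One gene that this rule names is not reported here. Coordinates are GRCm38.p6 (RefSeq). Alternatives were other pseudocounts, filters and scalings, library quality weights, no trend, fits of 2 groups and leaving out each library. Removal of a length and GC trend was added after seeing the data, with 97.4% of kept genes matched.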

Additional observations from a re-analysis of the deposited data

How the results depend on the processing

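No paired analysis was possible because nothing in the labels links libraries of different groups. Over the alternatives, 387 of 399 log2 differences of single genes kept their direction and their side of the threshold. This count overstates stability, because several alternatives leave the log2 difference itself unchanged and can move only its p-value. These are the other filters, no trend, fits of only the 2 groups compared, and leaving out a library of the group not compared. In running against CUS the number of the 7 genes called, 0, was 3 with library quality weights (15.5% of all kept genes called), 1 in a fit of only those 2 groups (0.107%), and between 0 and 2 when 1 library was left out (11.0% without CUS replicate 2, where it was 2). In the test of any difference among the groups, 0 became 4 with library quality weights (Arc, Homer1, Nptx2 and Ptgs2, 9.80% of all kept genes) and lay between 0 and 1 with 1 library left out. In CUS against control the number without overlap, 3 (19.7% of all kept genes), lay between 3 and 5 with 1 library left out. Leaving out a library can only keep or raise this number, so that range is no measure of stability. It was 2 with the length and GC trend removed. In running against control the number without overlap, 5 (22.4% of all kept genes), was 4 with that trend removed and 4 after rescaling to the same sum of FPKM. In both comparisons with control 0 of the 7 were called under any alternative run. Directions reversed in 5 cases, none of them called. The Npas4 difference of running from CUS was -0.22 with library quality weights and, with 1 library left out, between -0.12 (without CUS replicate 3) and 0.73. The Homer1 difference of CUS from control was 0.02 without control replicate 1, and lay between -0.20 and 0.14 (without CUS replicate 1) with 1 library left out. With library quality weights it kept its direction, at -0.29. The Ptgs2 difference of running from control lay between -0.0058 (without control replicate 2) and 0.11 with 1 library left out. The cause was not tested. Over all genes, running against CUS gave 1 call, 2178 with library quality weights, 1535 without CUS replicate 2 and 0 without CUS replicate 3. The median of the 7 in running against control was -0.0058 without control replicate 2. The depth behind each value is unknown, so the counting error of low values such as those of Pla2g4a cannot be given.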
